A study of Mus musculus with 3 samples.

Results

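The 37 genes described here encode the antioxidant and glutathione system of the mouse and the main targets of NRF2, the transcription factor that controls much of it. They were chosen by symbol, as a list set by function, though with earlier results of these data known. The table of read counts held 36 of them among its 19723 genes, and all 36 passed a filter of at least 1 CPM (counts scaled to library depth) in at least 1 library, as did 13019 genes in all. Me1, the cytosolic malic enzyme that makes NADPH, was found in the deposited FPKM table (fragments per kilobase, scaled to depth) but not in the count table, and its levels were 0.0973 FPKM in alisertib MDSCs, 0.0778 FPKM in control MDSCs and 0 FPKM in bone marrow neutrophils.

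RNA was sequenced from 3 pooled cell sorts. All mice were BALB/c females, 6 to 8 weeks old. Alisertib MDSCs were sorted from 20 tumours of animals treated with alisertib, a drug that blocks the mitotic kinase Aurora A. MDSCs, or myeloid-derived suppressor cells, are a mixed population of myeloid cells that dampen T cell responses. Control MDSCs came from 20 tumours of mice that the labels call control treated in one place and untreated in another, and bone marrow neutrophils came from 5 wild-type mice without tumours. The sources used here do not give the tumour line, the dose, the schedule or the surface markers of the sort. The bone marrow neutrophils differ from both MDSC groups in tissue as well as in the presence of a tumour, and these cannot be told apart.

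In resting cells the adaptor KEAP1 holds NRF2 and has it degraded. Oxidants and electrophiles modify KEAP1, whereupon NRF2 accumulates, pairs with small MAF proteins and binds antioxidant response elements, the sites that the repressor BACH1 occupies otherwise. The target genes make and recycle glutathione and thioredoxin, reduce peroxides, supply NADPH and export conjugates. Neutrophils and MDSCs are known for producing oxidants through NADPH oxidase, so they both use NADPH to make superoxide and need it to reduce glutathione and thioredoxin.

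With 1 library per group there is no spread between replicates and no test, so every comparison is between these libraries. Counts summed to 19373087 in the alisertib, 21959748 in the control and 21987097 in the bone marrow library. Each ratio of CPM, on library sizes scaled by TMM (trimmed mean of M-values), is given with an exact (Clopper-Pearson) 95% interval. The intervals cover counting error only, and they may be too narrow even for that, because reads that carry no molecular identifiers can be copies of a single molecule. A call, higher or lower, required the interval's bound nearest to 1 to reach 2-fold. In pooled cells, fewer cells of a type and less RNA per cell cannot be told apart.

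The markers of the sorted cells were present in all 3 libraries, but their summed levels differed. All 12 neutrophil markers were detected in each library, with summed levels of 16550 CPM in alisertib MDSCs, 34780 CPM in control MDSCs and 64910 CPM in bone marrow neutrophils. Over bone marrow, 1 of them was called higher and 7 lower in alisertib MDSCs, and 1 higher and 5 lower in control MDSCs. The 10 granule genes of immature neutrophils summed to 359 CPM in alisertib MDSCs and 2225 CPM in control MDSCs, against 45470 CPM in bone marrow neutrophils, and Ctsg was at 0 in alisertib MDSCs. The 12 monocyte and macrophage markers summed to 1077 CPM in alisertib MDSCs, 1002 CPM in control MDSCs and 596.9 CPM in bone marrow neutrophils. They were called in both directions over bone marrow, with 7 higher and 2 lower in alisertib MDSCs, and 6 higher and 3 lower in control MDSCs. The 10 B cell markers summed to 49.9 CPM in alisertib MDSCs, 6.45 CPM in control MDSCs and 216 CPM in bone marrow neutrophils, and the 14 T and NK cell markers to 66.8 CPM in alisertib MDSCs, 26.3 in control MDSCs and 151 in bone marrow neutrophils. Most of the last sum was Cd3d, a chain of the T cell receptor complex, with 6.21 CPM in alisertib MDSCs, 8.70 CPM in control MDSCs and 136 CPM in bone marrow neutrophils. Of the 13 T and NK cell markers past the filter, 9 were called higher and 2 lower in alisertib MDSCs over bone marrow, 4 higher and 2 lower in control MDSCs over bone marrow, and 8 higher and 0 lower in alisertib over control MDSCs. Of red cell genes, Hba-a1 had 2.17 CPM in alisertib MDSCs, 2.61 CPM in control MDSCs and 31.1 CPM in bone marrow neutrophils. Hbb-bs had 2.60 CPM in alisertib MDSCs, 3.38 CPM in control MDSCs and 36.3 CPM in bone marrow neutrophils, so both were lower in the MDSCs. Tfrc went the other way, uncalled, with 46.8 CPM in alisertib MDSCs, 68.0 CPM in control MDSCs and 36.6 CPM in bone marrow neutrophils. Of the 8 red cell markers past the filter, 7 were called lower and 0 higher in each kind of MDSC over bone marrow. Cd3d and the red cell genes were named after their values were seen. The part of cell mixture in the differences below was not tested.

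Between alisertib and control MDSCs few of these genes were called, though many intervals lay away from 1 without reaching 2-fold. None of the 36 was called higher, where 1.80% of all genes tested were, and 2 were called lower, where 1.18% of all genes were. The 2 lower genes were Ggt1, whose product cleaves extracellular glutathione, and Tkt, which encodes the pentose phosphate enzyme transketolase. The median log2 ratio was 0.13 over the 36 genes and 0.00 over all genes, with 22 of the 36 ratios above 1 and 14 below. With a bound of 1.5-fold, Gclc and Prdx1 were called higher, where 4.74% of all genes were, and the same 2 genes were called lower, where 4.92% of all genes were. Scaling by total counts in place of TMM raises every log2 ratio of this comparison by 0.27. On that scale the median of the 36 was 0.40, Prdx1 was called higher, Tkt was no longer called, and 6 of the 14 ratios below 1 (Gsr, Txn1, Prdx4, Prdx6, G6pdx and Pgd) lay above 1.

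**Figure D1:**
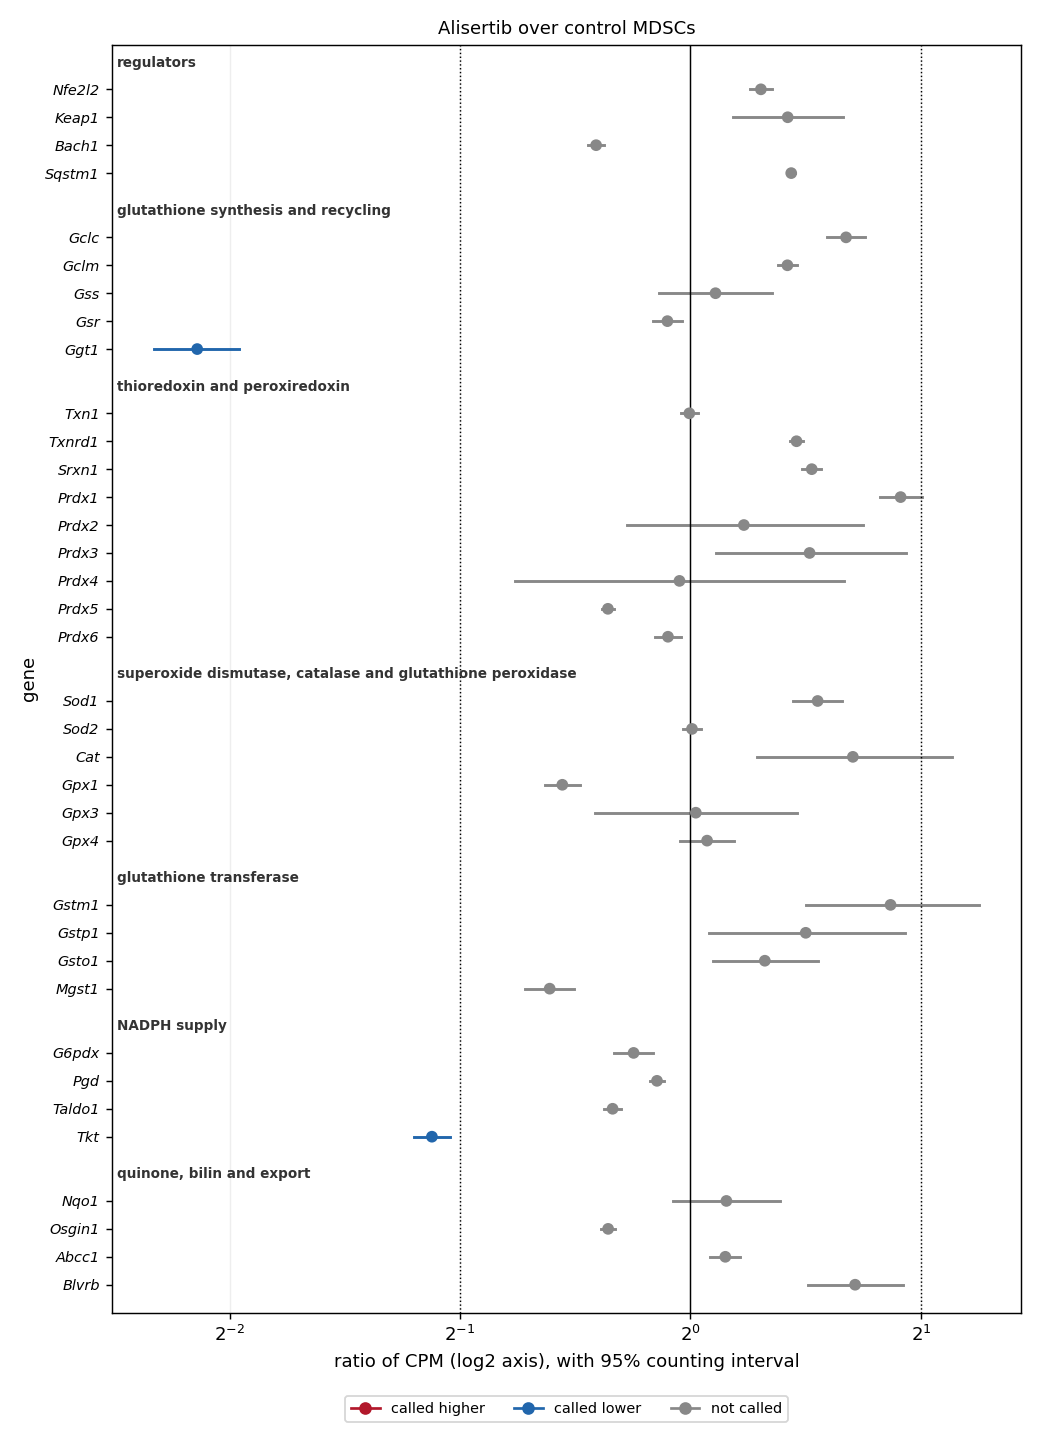
Ratio of CPM in alisertib MDSCs over control MDSCs (log2 axis) for the 36 genes by role, with 95% counting intervals and dotted lines at 2-fold. Ggt1 at 0.227 and Tkt at 0.459 are the genes called lower, and the other 34 lie between 0.655 (Mgst1) and 1.88 (Prdx1).

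Against bone marrow neutrophils, 20 or more of the 36 genes were called in each kind of MDSC. In control MDSCs 15 were higher and 5 lower, where 18.3% of all genes tested were higher and 22.9% lower. In alisertib MDSCs 16 were higher and 5 lower, where 18.7% of all genes were higher and 22.3% lower. The median log2 ratio of the 36 was 0.70 in control MDSCs, against -0.14 over all genes, and 0.58 in alisertib MDSCs, against -0.09 over all genes. With a filter of 10 CPM, which leaves 30 of the genes, the medians were 1.35 in control MDSCs and 1.40 in alisertib MDSCs, so their order depends on the filter. At the 1.5-fold bound, 17 were higher and 8 lower in alisertib MDSCs (26.0% and 30.7% of all genes), and 18 higher and 9 lower in control MDSCs (25.4% and 30.9%). These comparisons share the bone marrow library, so a value that is off in that library moves both.

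By role, the genes that were higher in both kinds of MDSC encode NRF2 itself, the enzymes of glutathione synthesis, parts of the thioredoxin system, the mitochondrial superoxide dismutase, quinone reduction and conjugate export. The 14 genes are Nfe2l2, Bach1, Sqstm1, Gclc, Gclm, Gss, Txnrd1, Srxn1, Prdx1, Sod2, Gsto1, Nqo1, Osgin1 and Abcc1. Lower in both were Cat, Gpx1, Mgst1, G6pdx and Tkt, which encode catalase, a glutathione peroxidase, a microsomal glutathione transferase and enzymes of the pentose phosphate pathway. Sod1 and Blvrb were called in alisertib MDSCs and not in control MDSCs, and Ggt1 in control MDSCs and not in alisertib MDSCs. No call was made in any of the 3 comparisons for the other 14 genes, which are Keap1, Gsr, Txn1, Prdx2, Prdx3, Prdx4, Prdx5, Prdx6, Gpx3, Gpx4, Gstm1, Gstp1, Pgd and Taldo1.

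**Figure D2:**
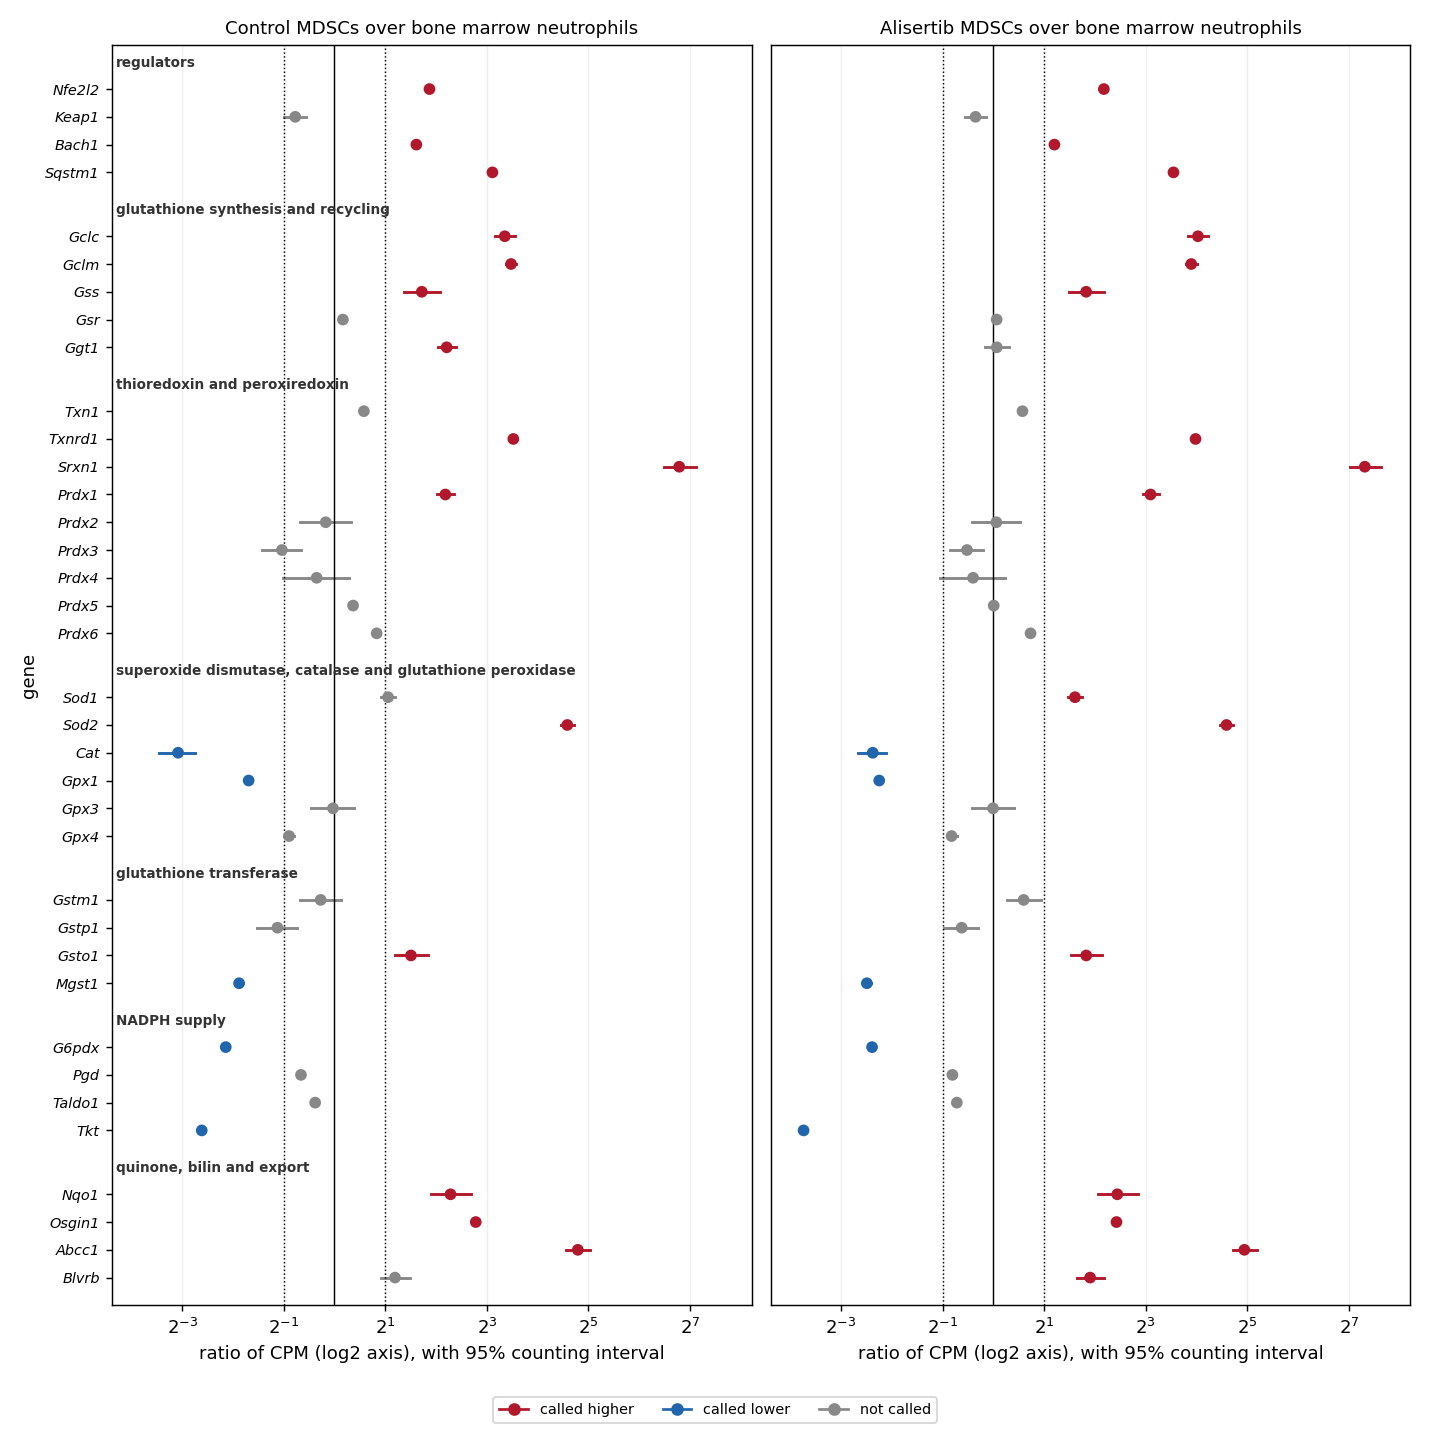
Ratio of CPM in control MDSCs (left) and alisertib MDSCs (right) over bone marrow neutrophils, on a log2 axis, for the 36 genes by role with 95% counting intervals and dotted lines at 2-fold. Srxn1 lies farthest right in both panels, at 110.4 and 159, and the genes of NADPH supply all lie left of 1.

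The letters of the antioxidant response element were looked for in the promoters of the listed genes, whichever way their levels differed. RefSeq promoter windows (GRCm38.p6, 250 bases before to 50 bases after a transcript's start) were matched by symbol for 33 of the 37 genes, which have 46 windows. No window was matched for Gclc, Gsr, Prdx6 and Abcc1. The core TGACNNNGC, searched on both strands, was in 13 of 46 windows (28.3%), belonging to 11 genes, and in 12.4% of all 32851 windows. Of these genes, Gclm, Nfe2l2, Prdx1, Srxn1 and Txnrd1 were higher in both kinds of MDSC. G6pdx and Mgst1 were lower in both, and the rest were Ggt1, Me1, Pgd and Sod1. The genes were listed partly as NRF2 targets, so the share is not independent of that choice. A longer form, TGANTCAGC, chosen after the windows had been seen and overlapping the core where its N is C, was in 5 of 46 windows (10.9%) and in 390, or 1.19%, of all windows. Those 5 windows belong to Srxn1, Prdx1, Osgin1, Gstp1 and Me1. The first 4 are printed because they join the gene with the greatest ratio over bone marrow (Srxn1), the gene with the highest ratio of alisertib over control MDSCs (Prdx1), an abundant target (Osgin1) and, as a contrast, a gene that was called in no comparison (Gstp1). They are given 5′ to 3′ on the strand of the gene, with the match in capitals.
Srxn1: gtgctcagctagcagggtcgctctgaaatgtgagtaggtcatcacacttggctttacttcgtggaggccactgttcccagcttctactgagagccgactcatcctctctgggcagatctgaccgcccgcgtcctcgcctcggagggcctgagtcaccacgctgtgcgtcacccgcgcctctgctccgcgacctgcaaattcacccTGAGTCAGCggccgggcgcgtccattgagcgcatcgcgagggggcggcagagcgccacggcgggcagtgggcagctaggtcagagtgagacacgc
Prdx1: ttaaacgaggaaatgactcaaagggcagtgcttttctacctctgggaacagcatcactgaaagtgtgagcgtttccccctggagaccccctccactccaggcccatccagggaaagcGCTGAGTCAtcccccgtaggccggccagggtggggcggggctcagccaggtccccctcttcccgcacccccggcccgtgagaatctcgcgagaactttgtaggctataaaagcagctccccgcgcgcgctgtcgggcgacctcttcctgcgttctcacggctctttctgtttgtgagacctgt
Osgin1: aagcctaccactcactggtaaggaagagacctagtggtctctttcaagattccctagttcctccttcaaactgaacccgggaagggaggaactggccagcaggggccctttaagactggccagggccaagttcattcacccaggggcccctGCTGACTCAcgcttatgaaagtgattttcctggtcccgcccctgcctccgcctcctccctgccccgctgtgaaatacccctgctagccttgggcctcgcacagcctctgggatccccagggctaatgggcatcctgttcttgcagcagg
Gstp1: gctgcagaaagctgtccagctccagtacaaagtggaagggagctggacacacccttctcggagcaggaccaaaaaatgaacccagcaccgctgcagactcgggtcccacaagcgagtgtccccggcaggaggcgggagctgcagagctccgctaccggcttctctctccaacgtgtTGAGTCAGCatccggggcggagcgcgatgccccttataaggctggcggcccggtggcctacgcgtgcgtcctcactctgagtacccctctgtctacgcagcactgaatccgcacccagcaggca
The Srxn1 window is chr2:152105274-152105573 on the plus strand, the Prdx1 window chr4:116685349-116685648 on the plus strand, the Osgin1 window chr8:119436897-119437196 on the plus strand and the Gstp1 window chr19:4037863-4038162 on the minus strand. The match begins at -45 from the start in Srxn1, -133 in Prdx1, -99 in Osgin1 and -74 in Gstp1. The Osgin1 window belongs to a start that lies downstream of the 5′ end of the gene as GENCODE gives it. A match is a string of letters and shows no binding, and a window without one lacks only these letters.

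The regulators stood higher in both kinds of MDSC than in bone marrow, apart from Keap1. Nfe2l2, which encodes NRF2 (ENSMUSG00000015839, chromosome 2, 75675513 to 75704641, minus strand, GRCm38), had 8187 counts (394 CPM) in alisertib MDSCs, 6233 (319 CPM) in control MDSCs and 2014 (87.3 CPM) in bone marrow neutrophils. Both MDSC libraries were well above the bone marrow library, and alisertib MDSCs were the highest. Its ratio was 1.24 for alisertib over control MDSCs (1.20 to 1.28), 4.52 for alisertib MDSCs over bone marrow (4.30 to 4.75) and 3.65 for control MDSCs over bone marrow (3.48 to 3.85). Bach1, the repressor that competes with NRF2 for its sites, had 12791 counts (616 CPM) in alisertib MDSCs, 15986 (818 CPM) in control MDSCs and 6178 (268 CPM) in bone marrow neutrophils. Here control MDSCs were the highest library, with a ratio of alisertib over control MDSCs of 0.753 (0.736 to 0.771), and the ratios over bone marrow were 2.30 (2.23 to 2.37) in alisertib MDSCs and 3.06 (2.97 to 3.15) in control MDSCs. Per length, Bach1 stood to Nfe2l2 at a ratio of FPKM of 0.96 in alisertib MDSCs, 1.58 in control MDSCs and 1.88 in bone marrow neutrophils.

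Sqstm1 encodes p62, an autophagy receptor that binds KEAP1 and is itself an NRF2 target (ENSMUSG00000015837, chromosome 11, 50199366 to 50210827). It had 71932 counts in alisertib MDSCs, 49989 in control MDSCs and 6843 in bone marrow neutrophils. At 1003 FPKM it was the most abundant of the 36 genes in alisertib MDSCs, at rank 30 among the 23327 genes with an FPKM, and at 743 FPKM also in control MDSCs, at rank 62. In bone marrow neutrophils it reached 87.4 FPKM. The ratio over bone marrow was 11.7 (11.4 to 12.0) in alisertib MDSCs and 8.63 (8.41 to 8.85) in control MDSCs, and that of alisertib over control MDSCs was 1.35 (1.34 to 1.37). Keap1 was low throughout, at 359 counts (17.3 CPM) in alisertib MDSCs, 252 (12.9 CPM) in control MDSCs and 509 (22.1 CPM) in bone marrow neutrophils. Its ratios, 1.34 for alisertib over control MDSCs (1.14 to 1.58), 0.784 for alisertib MDSCs over bone marrow (0.683 to 0.899) and 0.585 for control MDSCs over bone marrow (0.501 to 0.681), did not pass the 2-fold bound. Nfe2l2 thus exceeded Keap1 in FPKM by a ratio of 28.0 in alisertib MDSCs and 30.4 in control MDSCs, against 4.86 in bone marrow neutrophils.

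**Figure D3:**
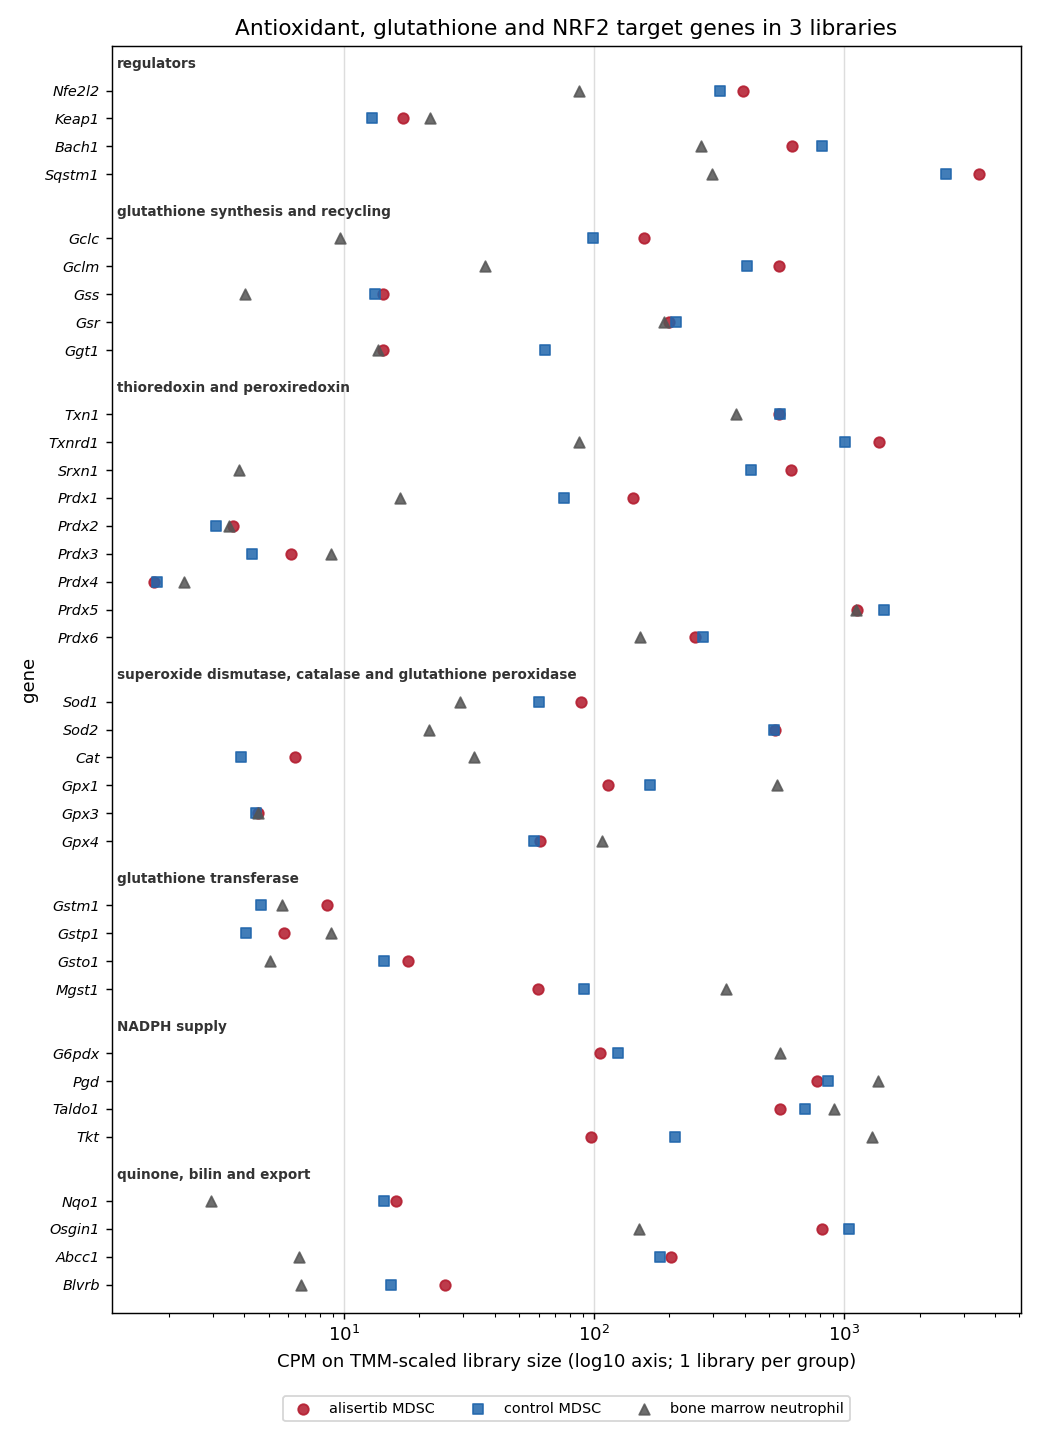
CPM of the 36 genes by role in alisertib MDSCs, control MDSCs and bone marrow neutrophils (log10 axis, 1 library per group). The points of the 2 MDSC libraries lie within 2-fold of each other for all genes but Ggt1 and Tkt, and the bone marrow point lies far to their left for Srxn1 (609.9 CPM in alisertib MDSCs, 424 CPM in control MDSCs, 3.81 CPM in bone marrow) and far to their right for Tkt (96.8, 211 and 1290.0 CPM).

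The genes of glutathione synthesis were higher in both kinds of MDSC than in bone marrow. Gclc and Gclm encode the catalytic and modifier subunits of glutamate-cysteine ligase, the rate-limiting enzyme. Gclc (ENSMUSG00000032350, chromosome 9, 77754535 to 77794485) had 3279 counts (158 CPM) in alisertib MDSCs, 1932 (98.9 CPM) in control MDSCs and 223 (9.67 CPM) in bone marrow neutrophils. Gclm (ENSMUSG00000028124, chromosome 3, 122245557 to 122270732) had 11357 counts (547 CPM) in alisertib MDSCs, 7983 (409 CPM) in control MDSCs and 847 (36.7 CPM) in bone marrow neutrophils. The order of the libraries was the same for both subunits, with alisertib MDSCs highest and bone marrow neutrophils lowest. Over bone marrow, Gclc was 16.3-fold higher in alisertib MDSCs (14.3 to 18.8) and 10.2-fold higher in control MDSCs (8.90 to 11.8). Gclm was 14.9-fold higher in alisertib MDSCs (13.9 to 15.997) and 11.1-fold higher in control MDSCs (10.4 to 12.0). Between alisertib and control MDSCs their ratios were 1.597 (1.51 to 1.69) for Gclc and 1.34 (1.301 to 1.38) for Gclm. Gclm shares 296 exon bases with Gm17494 on the opposite strand, which had 1194 counts in alisertib MDSCs, 1187 in control MDSCs and 16 in bone marrow neutrophils. The modifier stood to the catalytic subunit at 1.88 in alisertib MDSCs, 2.25 in control MDSCs and 2.07 in bone marrow neutrophils, as a ratio of FPKM.

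Gss, which encodes glutathione synthetase for the second step, had 298 counts in alisertib MDSCs, 260 in control MDSCs and 93 in bone marrow neutrophils. These are levels of 14.4 CPM in alisertib MDSCs, 13.3 CPM in control MDSCs and 4.03 CPM in bone marrow neutrophils. It was higher over bone marrow in both kinds of MDSC, by 3.55-fold in alisertib MDSCs (2.81 to 4.54) and 3.29-fold in control MDSCs (2.60 to 4.23). Gsr, the glutathione reductase that returns oxidised glutathione to its reduced form with NADPH, was nearly level, with 199 CPM in alisertib MDSCs, 213 CPM in control MDSCs and 189.9 CPM in bone marrow neutrophils. Its ratios were 0.933 for alisertib over control MDSCs (0.894 to 0.974), 1.05 for alisertib MDSCs over bone marrow (1.002 to 1.09) and 1.12 for control MDSCs over bone marrow (1.07 to 1.17).

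Ggt1 had a pattern of calls that no other of the 36 genes had. It encodes gamma-glutamyltransferase, a membrane enzyme that breaks down glutathione outside the cell (ENSMUSG00000006345, chromosome 10, 75561604 to 75586200). Counts were 298 (14.4 CPM) in alisertib MDSCs, 1238 (63.4 CPM) in control MDSCs and 316 (13.7 CPM) in bone marrow neutrophils. Control MDSCs stood alone, and the other libraries lay together. Ggt1 was 4.41-fold lower in alisertib than in control MDSCs (3.89 to 5.03), and 3.66-fold lower by total counts. It was 4.62-fold higher in control MDSCs than in bone marrow neutrophils (4.09 to 5.25), while the ratio of alisertib MDSCs over bone marrow was 1.05 (0.892 to 1.23).

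In the thioredoxin system, which reduces peroxiredoxins with electrons from NADPH, 3 of 9 genes were called higher in both kinds of MDSC than in bone marrow. None was called lower, and the other 6 were not called. Over all genes, 18.7% were higher and 22.3% lower in alisertib MDSCs, and 18.3% higher and 22.9% lower in control MDSCs. Srxn1 encodes sulfiredoxin, which repairs overoxidised peroxiredoxins (ENSMUSG00000032802, chromosome 2, 152105516 to 152111376). It had 12661 counts (609.9 CPM) in alisertib MDSCs, 8272 (424 CPM) in control MDSCs and 88 (3.81 CPM) in bone marrow neutrophils. Both MDSC libraries were far above the bone marrow library. The gene was 159-fold higher in alisertib MDSCs (129.7 to 199.5) and 110.4-fold higher in control MDSCs (90.0 to 139), and its ratio of alisertib over control MDSCs was 1.44 (1.40 to 1.48). Its promoter window carries the longer element printed above.

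Txnrd1, the cytosolic thioredoxin reductase (ENSMUSG00000020250, chromosome 10, 82833951 to 82897712), had 28635 counts (1379 CPM) in alisertib MDSCs, 19585 (1003 CPM) in control MDSCs and 2015 (87.3 CPM) in bone marrow neutrophils. It was 15.8-fold higher over bone marrow in alisertib MDSCs (15.1 to 16.5) and 11.5-fold higher in control MDSCs (10.96 to 12.0), with a ratio of alisertib over control MDSCs of 1.38 (1.35 to 1.40). Its substrate thioredoxin, Txn1, differed much less, at 551 CPM in alisertib MDSCs, 553 CPM in control MDSCs and 370.2 CPM in bone marrow neutrophils. The ratio of Txnrd1 to Txn1 in FPKM was therefore 0.77 in alisertib MDSCs, 0.558 in control MDSCs and 0.0726 in bone marrow neutrophils. Set against the glutathione reductase Gsr, Txnrd1 stood at a ratio of FPKM of 5.60 in alisertib MDSCs, 3.80 in control MDSCs and 0.371 in bone marrow neutrophils, so that bone marrow neutrophils held less of it than of Gsr, and both kinds of MDSC held more.

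Prdx1, a cytosolic peroxiredoxin that reduces hydrogen peroxide (ENSMUSG00000028691, chromosome 4, 116685544 to 116700822), had 2962 counts (143 CPM) in alisertib MDSCs, 1481 (75.8 CPM) in control MDSCs and 385 (16.7 CPM) in bone marrow neutrophils. The 3 libraries were spaced apart, with alisertib MDSCs highest. Its ratio of 1.88 for alisertib over control MDSCs (1.77 to 2.004) was the highest among the 36 genes and missed the 2-fold bound, while by total counts it was 2.27 and was called higher. Over bone marrow it was 8.54-fold higher in alisertib MDSCs (7.69 to 9.53) and 4.54-fold higher in control MDSCs (4.06 to 5.10).

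The other 5 peroxiredoxin genes were called in no comparison. Prdx5, which encodes a peroxiredoxin of mitochondria, peroxisomes and cytosol, was abundant everywhere, with 1121 CPM in alisertib MDSCs, 1437 CPM in control MDSCs and 1115 CPM in bone marrow neutrophils. It was the most abundant of the 36 genes in bone marrow neutrophils, at 516 FPKM and rank 50 among all genes. Prdx6, whose enzyme also acts on phospholipid peroxides, had 254 CPM in alisertib MDSCs, 272 in control MDSCs and 153 in bone marrow neutrophils and ratios over bone marrow of 1.66 (1.59 to 1.73) in alisertib MDSCs and 1.78 (1.70 to 1.86) in control MDSCs. Prdx2 (cytosolic), Prdx3 (mitochondrial) and Prdx4 (of the endoplasmic reticulum) had between 35 and 204 counts per library. Prdx3 had 128 counts in alisertib MDSCs, 84 in control MDSCs and 204 in bone marrow neutrophils, and its ratio of control MDSCs over bone marrow, 0.488 (0.373 to 0.630), reached past 2-fold without its whole interval doing so. Prdx2 shares 173 exon bases with Junb on the opposite strand, a gene with 17452 counts in alisertib MDSCs, 32879 in control MDSCs and 17419 in bone marrow neutrophils, so its values are uncertain where strand is not stated.

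The superoxide dismutases and the enzymes that remove hydrogen peroxide did not move together. Sod2, the mitochondrial manganese enzyme (ENSMUSG00000006818, chromosome 17, 13006846 to 13040063), had 10950 counts (528 CPM) in alisertib MDSCs, 10257 (525 CPM) in control MDSCs and 505 (21.9 CPM) in bone marrow neutrophils. Both MDSC libraries were high and nearly equal. The gene was 24.1-fold higher in alisertib MDSCs (22.04 to 26.4) and 24.0-fold higher in control MDSCs (21.9 to 26.3) than in bone marrow, with a ratio of alisertib over control MDSCs of 1.005 (0.978 to 1.03). Sod1, the cytosolic copper and zinc enzyme, had 1834 counts (88.3 CPM) in alisertib MDSCs, 1177 (60.3 CPM) in control MDSCs and 669 (29.0 CPM) in bone marrow neutrophils. It was 3.05-fold higher in alisertib MDSCs than in bone marrow (2.79 to 3.33), and its ratio of 2.08 in control MDSCs (1.89 to 2.29) missed the bound. Sod2 stood to Sod1 at 1.01 in alisertib MDSCs, 1.47 in control MDSCs and 0.128 in bone marrow neutrophils, as a ratio of FPKM.

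Catalase and glutathione peroxidase 1 went the other way. Cat (ENSMUSG00000027187, chromosome 2, 103453849 to 103485160) had 132 counts (6.36 CPM) in alisertib MDSCs, 76 (3.89 CPM) in control MDSCs and 763 (33.1 CPM) in bone marrow neutrophils. It was 5.18-fold lower in alisertib MDSCs (4.32 to 6.31) and 8.45-fold lower in control MDSCs (6.71 to 10.9) than in bone marrow. Gpx1, the cytosolic selenoenzyme that reduces hydrogen peroxide with glutathione (ENSMUSG00000063856, chromosome 9, 108338903 to 108340343), had 2359 counts (114 CPM) in alisertib MDSCs, 3264 (167 CPM) in control MDSCs and 12444 (539 CPM) in bone marrow neutrophils. Bone marrow neutrophils were highest for both genes. Gpx1 was 4.75-fold lower in alisertib MDSCs (4.54 to 4.96) and 3.23-fold lower in control MDSCs (3.11 to 3.36). Gpx4, which reduces lipid peroxides and guards against ferroptosis, had 60.6 CPM in alisertib MDSCs, 57.6 CPM in control MDSCs and 107 CPM in bone marrow neutrophils, and ratios over bone marrow of 0.566 in alisertib MDSCs (0.528 to 0.606) and 0.538 in control MDSCs (0.501 to 0.577), so both intervals lay wholly within 2-fold and neither ratio was called. Gpx3, the secreted peroxidase, was nearly level, with 94 counts (4.53 CPM) in alisertib MDSCs, 87 (4.45 CPM) in control MDSCs and 105 (4.55 CPM) in bone marrow neutrophils.

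Among the glutathione transferases, which attach glutathione to electrophiles, Mgst1 and Gsto1 differed in opposite directions. Mgst1, the microsomal enzyme (ENSMUSG00000008540, chromosome 6, 138140316 to 138156755), had 1244 counts (59.9 CPM) in alisertib MDSCs, 1788 (91.5 CPM) in control MDSCs and 7767 (337 CPM) in bone marrow neutrophils. It was 5.62-fold lower in alisertib MDSCs (5.29 to 5.97) and 3.68-fold lower in control MDSCs (3.49 to 3.87) than in bone marrow. Gsto1, an omega-class enzyme with thioltransferase activity, had 375 counts (18.1 CPM) in alisertib MDSCs, 282 (14.4 CPM) in control MDSCs and 117 (5.07 CPM) in bone marrow neutrophils. It was 3.55-fold higher in alisertib MDSCs (2.89 to 4.42) and 2.84-fold higher in control MDSCs (2.29 to 3.56) than in bone marrow, though not called in control MDSCs with total counts. Gstm1 (mu class) had 177 counts in alisertib MDSCs, 91 in control MDSCs and 130 in bone marrow neutrophils, and its ratio of alisertib over control MDSCs was 1.83 (1.41 to 2.38). Gstp1 (pi class) had 119 counts in alisertib MDSCs, 79 in control MDSCs and 204 in bone marrow neutrophils, with ratios over bone marrow of 0.649 (0.513 to 0.817) in alisertib MDSCs and 0.459 (0.348 to 0.596) in control MDSCs. It has close copies, so its counts are uncertain.

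The 4 counted genes of NADPH supply were all below bone marrow in both kinds of MDSC. Me1, also of this role, was not compared, and had 0.0973 FPKM in alisertib MDSCs, 0.0778 FPKM in control MDSCs and 0 FPKM in bone marrow neutrophils. G6pdx encodes glucose-6-phosphate dehydrogenase, the first step of the pentose phosphate pathway (ENSMUSG00000031400, chromosome X, 74409483 to 74429194). It had 2187 counts (105 CPM) in alisertib MDSCs, 2442 (125 CPM) in control MDSCs and 12720 (551 CPM) in bone marrow neutrophils. Its level was 5.23-fold lower in alisertib MDSCs (5.00 to 5.48) and 4.41-fold lower in control MDSCs (4.22 to 4.61) than in bone marrow. Pgd, the next dehydrogenase of the pathway, had 781 CPM in alisertib MDSCs, 864 in control MDSCs and 1365 in bone marrow neutrophils, and Taldo1, the transaldolase of the non-oxidative branch, had 553 CPM in alisertib MDSCs, 698 in control MDSCs and 909 in bone marrow neutrophils. Neither was called. The ratios over bone marrow were 0.572 in alisertib MDSCs (0.561 to 0.583) and 0.633 in control MDSCs (0.621 to 0.645) for Pgd, and 0.608 (0.594 to 0.622) and 0.768 (0.752 to 0.785) in the same groups for Taldo1.

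Tkt, the transketolase of the same branch (ENSMUSG00000021957, chromosome 14, 30548359 to 30574720), was lower in every comparison. Counts were 2010 (96.8 CPM) in alisertib MDSCs, 4117 (211 CPM) in control MDSCs and 29760 (1290.0 CPM) in bone marrow neutrophils. The 3 libraries were spaced apart, with alisertib MDSCs lowest. Tkt was 2.18-fold lower in alisertib than in control MDSCs (2.06 to 2.30), or 1.81-fold by total counts, where it was not called. It was 13.3-fold lower in alisertib MDSCs (12.7 to 13.9) and 6.12-fold lower in control MDSCs (5.92 to 6.33) than in bone marrow. The 4 counted genes of this role summed to 433.9 FPKM in alisertib MDSCs and 542 FPKM in control MDSCs, against 1032 FPKM in bone marrow neutrophils. Gpx1, Mgst1, G6pdx, Pgd, Taldo1 and Tkt had the same order of libraries as the summed granule genes of immature neutrophils (359 CPM in alisertib MDSCs, 2225 CPM in control MDSCs, 45470 CPM in bone marrow neutrophils). By total counts the ratios of alisertib over control MDSCs were above 1 for G6pdx (1.015) and Pgd (1.089), so their order depends on the scaling. The part of immature neutrophils in the differences was not tested.

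The 4 genes of quinone reduction, bilin reduction and export had ratios above 1 over bone marrow in both kinds of MDSC. All 4 were called higher in alisertib MDSCs (18.7% of all genes were) and 3 in control MDSCs (18.3%). Nqo1, a quinone reductase widely used as a readout of NRF2 (ENSMUSG00000003849, chromosome 8, 107388225 to 107403206), had 334 counts (16.1 CPM) in alisertib MDSCs, 282 (14.4 CPM) in control MDSCs and 68 (2.95 CPM) in bone marrow neutrophils. It was 5.43-fold higher in alisertib MDSCs (4.19 to 7.19) and 4.87-fold higher in control MDSCs (3.75 to 6.48) than in bone marrow. Abcc1 encodes MRP1, which exports glutathione conjugates (ENSMUSG00000023088, chromosome 16, 14361558 to 14475737). It had 4217 counts (203 CPM) in alisertib MDSCs, 3573 (183 CPM) in control MDSCs and 152 (6.59 CPM) in bone marrow neutrophils, and was 30.7-fold higher in alisertib MDSCs (26.2 to 36.5) and 27.7-fold higher in control MDSCs (23.6 to 32.9). After those of Srxn1, the Abcc1 ratios over bone marrow were the highest of the 36 genes.

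Osgin1, an oxidative stress-induced growth inhibitor (ENSMUSG00000074063, chromosome 8, 119434124 to 119446256), had 16885 counts (813 CPM) in alisertib MDSCs, 20354 (1042 CPM) in control MDSCs and 3496 (152 CPM) in bone marrow neutrophils. Control MDSCs were the highest library. The gene was 5.37-fold higher over bone marrow in alisertib MDSCs (5.18 to 5.57) and 6.88-fold higher in control MDSCs (6.63 to 7.13), and its ratio of alisertib over control MDSCs was 0.781 (0.765 to 0.797). Blvrb, a biliverdin reductase that acts downstream of heme breakdown, had 527 counts (25.4 CPM) in alisertib MDSCs, 302 (15.5 CPM) in control MDSCs and 156 (6.76 CPM) in bone marrow neutrophils. It was 3.75-fold higher in alisertib MDSCs (3.13 to 4.52), and the ratio of 2.28 in control MDSCs (1.88 to 2.79) missed the bound.

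Summed per length, the balance between the roles differed between MDSCs and bone marrow neutrophils. The regulators summed to 1204 FPKM in alisertib MDSCs, 956 FPKM in control MDSCs and 158 FPKM in bone marrow neutrophils. Sqstm1 alone made up 1003 FPKM of this in alisertib MDSCs, 743 FPKM in control MDSCs and 87.4 FPKM in bone marrow neutrophils. The thioredoxin and peroxiredoxin genes made the greatest sum in both kinds of MDSC, at 1723 FPKM in alisertib MDSCs and 1683 FPKM in control MDSCs. In bone marrow neutrophils they summed to 935.5 FPKM, and the genes listed under NADPH supply made the greatest sum, 1032 FPKM. That rank depends on the grouping, since Taldo1 (450 FPKM) and Tkt (195 FPKM) of the non-oxidative branch are counted with the dehydrogenases Pgd (209 FPKM) and G6pdx (177 FPKM). The glutathione transferases summed to 50.8 FPKM in alisertib MDSCs and 59.7 FPKM in control MDSCs, against 183 FPKM in bone marrow neutrophils, of which Mgst1 made up 165 FPKM.

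**Figure D4:**
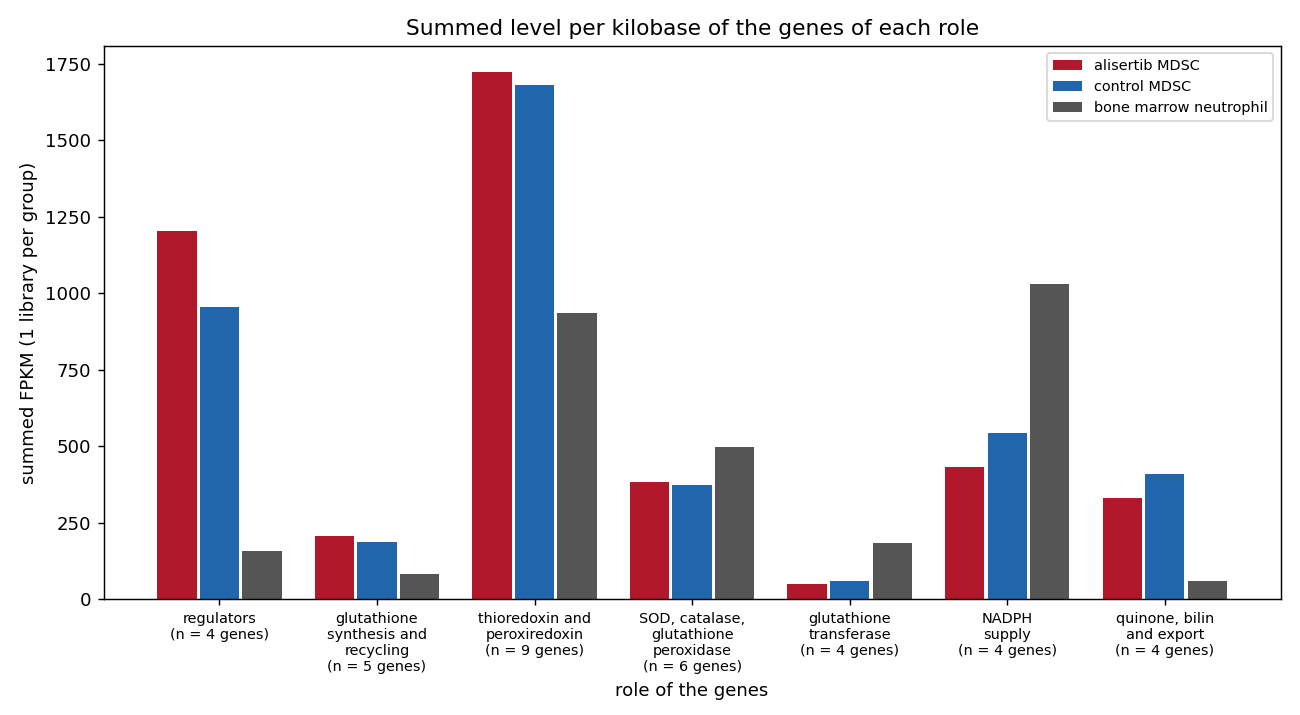
Summed FPKM of the genes of each role in alisertib MDSCs, control MDSCs and bone marrow neutrophils, 1 library per group. Bone marrow bars are lowest for regulators (158), glutathione synthesis (81.4), thioredoxin genes (935.5) and quinone, bilin and export genes (60.9), and highest for the other roles.

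Beyond these genes, 96 others of the same pathways were listed, and 79 passed the filter. In alisertib over control MDSCs 1 of the 79 was called higher and 0 lower, where 1.80% of all genes were higher and 1.18% lower. Their median log2 ratio was 0.08. Over bone marrow, 20 were higher and 27 lower in alisertib MDSCs, and 19 higher and 26 lower in control MDSCs, with a median log2 ratio of -0.33 in alisertib MDSCs and -0.53 in control MDSCs. Over all genes, 18.7% were higher and 22.3% lower in alisertib MDSCs, and 18.3% higher and 22.9% lower in control MDSCs, so lower calls outnumbered higher ones there too. The gene called between alisertib and control MDSCs was Ephx1, a microsomal epoxide hydrolase, with 51 counts in alisertib MDSCs, 10 in control MDSCs and 21 in bone marrow neutrophils. It was 4.62-fold higher in alisertib than in control MDSCs (2.41 to 10.6), from few counts, and was not called with FPKM plus 1. Its ratio of alisertib MDSCs over bone marrow, 2.66 (1.59 to 4.72), was not called.

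Other NRF2 targets included very abundant transcripts. Of 16 that passed the filter, 7 were higher and 3 lower in alisertib MDSCs than in bone marrow, and 7 higher and 4 lower in control MDSCs. Over all genes, 18.7% were higher and 22.3% lower in alisertib MDSCs, and 18.3% higher and 22.9% lower in control MDSCs. Ugdh, Abcc4 and Trim16 were lower in both kinds of MDSC, and Aldh9a1 in control MDSCs alone. These lower genes were named after their values were seen. Hmox1, the heme oxygenase that BACH1 represses, had 184569 counts in alisertib MDSCs, 162777 in control MDSCs and 1936 in bone marrow neutrophils, and ratios over bone marrow of 106 in alisertib MDSCs (101 to 111) and 99.3 in control MDSCs (94.9 to 104). The cystine importer gene Slc7a11, which supplies the cysteine for glutathione, had 58823 counts in alisertib MDSCs, 43358 in control MDSCs and 1818 in bone marrow neutrophils, and ratios of 35.9 (34.3 to 37.7) in alisertib MDSCs and 28.2 (26.9 to 29.5) in control MDSCs. Fth1, the ferritin heavy chain, had 532285 counts in alisertib MDSCs, 688039 in control MDSCs and 35513 in bone marrow neutrophils and ratios of 16.7 in alisertib MDSCs (16.5 to 16.8) and 22.9 in control MDSCs (22.6 to 23.1), and it has close copies that can share reads. Hmox1, Slc7a11 and Fth1 were far higher in both kinds of MDSC, and none was called between the MDSCs.

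Among 12 genes of the KEAP1 complex and the partners of NRF2, 3 were higher and 4 lower over bone marrow in each kind of MDSC, which at this number of genes is near the shares over all genes (18.7% and 22.3% in alisertib MDSCs, 18.3% and 22.9% in control MDSCs). Maff, a small MAF protein gene, had 10835 counts in alisertib MDSCs, 11801 in control MDSCs and 298 in bone marrow neutrophils, and was 40.3-fold higher in alisertib MDSCs (36.0 to 45.5) and 46.7-fold higher in control MDSCs (41.7 to 52.6). Nfe2, the blood-cell relative of NRF2, had 998 counts in alisertib MDSCs, 1923 in control MDSCs and 10589 in bone marrow neutrophils and was 9.54-fold lower in alisertib MDSCs (8.95 to 10.2) and 4.66-fold lower in control MDSCs (4.44 to 4.90). Nfe2 thus ran opposite to Nfe2l2. Palb2, a BRCA2 partner that binds KEAP1, had 12 counts in alisertib MDSCs, 2 in control MDSCs and 52 in bone marrow neutrophils, with ratios over bone marrow of 0.265 in alisertib MDSCs (0.125 to 0.487) and 0.0562 in control MDSCs (0.00536 to 0.173).

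Of 20 other genes of glutathione handling, 5 were higher and 6 lower over bone marrow in each kind of MDSC, near the shares over all genes (18.7% and 22.3% in alisertib MDSCs, 18.3% and 22.9% in control MDSCs). Mgst2, another microsomal transferase, had 49 counts in alisertib MDSCs, 72 in control MDSCs and 2282 in bone marrow neutrophils, and was 41.5-fold lower in alisertib MDSCs (31.6 to 56.8) and 26.7-fold lower in control MDSCs (21.2 to 34.4). Slc3a2, the partner chain of the cystine importer, had 25674 counts in alisertib MDSCs, 19593 in control MDSCs and 2283 in bone marrow neutrophils and was 12.5-fold higher in alisertib MDSCs (12.0 to 13.1) and 10.1-fold higher in control MDSCs (9.70 to 10.6). Chac1, which degrades glutathione inside the cell, had 342 counts in alisertib MDSCs, 357 in control MDSCs and 23 in bone marrow neutrophils and was 16.2-fold higher in alisertib MDSCs (10.8 to 26.4) and 18.0-fold higher in control MDSCs (12.0 to 29.3). Chac2, its relative, went the other way, with 5 counts in alisertib MDSCs, 12 in control MDSCs and 66 in bone marrow neutrophils, and was 10.9-fold lower in alisertib MDSCs (4.84 to 37.8) and 4.50-fold lower in control MDSCs (2.50 to 9.47). Ggt5, a relative of Ggt1, was 4.18-fold lower in alisertib MDSCs (3.77 to 4.65) and 2.80-fold lower in control MDSCs (2.56 to 3.07), so the genes of glutathione breakdown were called in both directions. Chac2 and Ggt5 were named after their values were seen.

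In the group of 19 other thioredoxin, superoxide and repair enzymes, 5 were higher and 5 lower in alisertib MDSCs over bone marrow, and 4 higher and 4 lower in control MDSCs. These counts, too, are near the shares over all genes (18.7% higher and 22.3% lower in alisertib MDSCs, 18.3% and 22.9% in control MDSCs). Sesn2, a stress-induced sestrin, had 7393 counts in alisertib MDSCs, 12363 in control MDSCs and 2108 in bone marrow neutrophils, and was 3.90-fold higher in alisertib MDSCs (3.71 to 4.09) and 6.92-fold higher in control MDSCs (6.61 to 7.26). Msrb2, a mitochondrial methionine sulfoxide reductase, had 19 counts in alisertib MDSCs, 20 in control MDSCs and 521 in bone marrow neutrophils and was 24.1-fold lower in alisertib MDSCs (15.6 to 41.3) and 21.5-fold lower in control MDSCs (14.1 to 36.4). Nxn, a thioredoxin-like oxidoreductase, had 187 counts in alisertib MDSCs, 270 in control MDSCs and 1672 in bone marrow neutrophils and was 8.03-fold lower in alisertib MDSCs (6.91 to 9.41) and 5.24-fold lower in control MDSCs (4.61 to 5.99).

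Most of the other sources of NADPH were called lower. Of 12 genes, 9 were lower in alisertib MDSCs than in bone marrow (22.3% of all genes were) and 8 lower in control MDSCs (22.9%), and none was called higher in either. The remaining 3 in alisertib MDSCs and 4 in control MDSCs were not called, among them Mthfd1, a folate enzyme named after its values were seen, whose ratio over bone marrow was 1.27 in alisertib MDSCs (0.938 to 1.72) and 0.776 in control MDSCs (0.540 to 1.10). H6pd, the glucose-6-phosphate dehydrogenase of the endoplasmic reticulum, had 317 counts in alisertib MDSCs, 140 in control MDSCs and 2963 in bone marrow neutrophils, and was 8.40-fold lower in alisertib MDSCs (7.49 to 9.47) and 17.9-fold lower in control MDSCs (15.1 to 21.4). Nnt, the mitochondrial transhydrogenase, had 167 counts in alisertib MDSCs, 187 in control MDSCs and 2056 in bone marrow neutrophils and was 11.05-fold lower in alisertib MDSCs (9.46 to 13.05) and 9.29-fold lower in control MDSCs (8.01 to 10.9). Idh1, the cytosolic isocitrate dehydrogenase, had 208 counts in alisertib MDSCs, 174 in control MDSCs and 1273 in bone marrow neutrophils and was 5.496-fold lower in alisertib MDSCs (4.75 to 6.41) and 6.18-fold lower in control MDSCs (5.28 to 7.30). The median log2 ratio of the 12 was -2.09 in alisertib MDSCs and -2.00 in control MDSCs, against -0.09 and -0.14 over all genes.

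**Figure D5:**
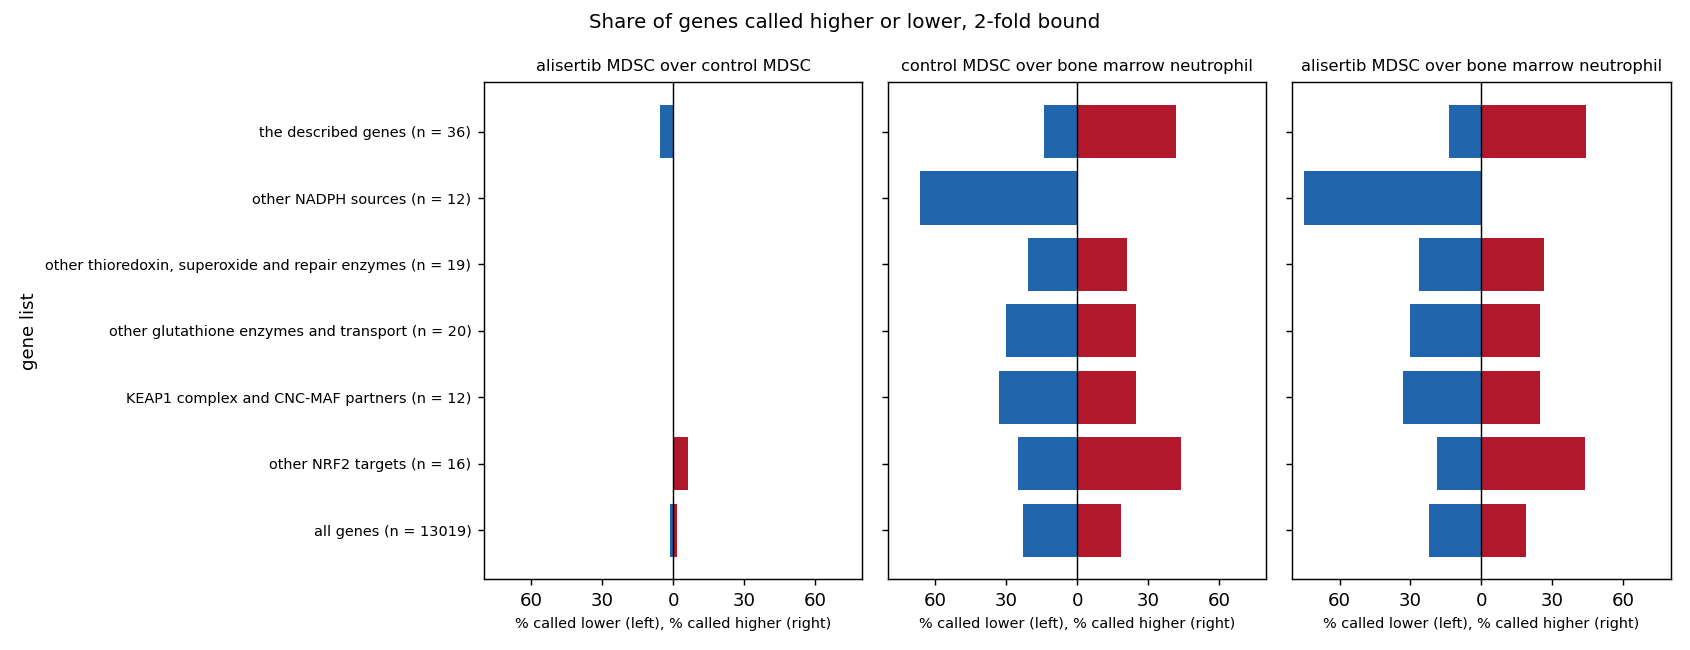
Share (%) of genes called lower (left of 0) and higher (right of 0) at the 2-fold bound in each gene list and over all 13019 genes, for the 3 comparisons. The described genes reach further right than all genes in both comparisons with bone marrow, and the other NADPH sources lie on the lower side alone.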

How the data were processed

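RNA sequencing of 3 libraries, 1 per group, was re-analysed. The authors deposited raw read counts per gene and FPKM values. CASAVA 1.8, STAR 2.5.1b and the builds mm9 and mm10 are named, without role or order, per the submitters' processing notes. The sources used here give no counting tool, annotation or strand setting, so overlapping genes (Prdx2 with Junb, Gclm with Gm17494, Sqstm1 with Mrnip, G6pdx with Ikbkg, Gss with Acss2, Prdx5 with Trmt112, Keap1 with Gm16754) and genes with close copies are uncertain. Comparisons used the counts. FPKM served for levels between genes, as it is scaled by length. Gene symbols and positions came from GENCODE M21 (GRCm38), and promoters from RefSeq.

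TMM factors from edgeR 4.0.16 (R 4.3.3) scaled the library sizes. Genes at 1 CPM or more in 1 library were kept, 0.5 was added to each count, and exact 95% intervals of each ratio were computed with SciPy 1.17.1. A call needed a bound of at least 2-fold. The procedure was tested on counts simulated with known fold changes and counting error alone. Such data hold no spread between replicates and no error of scaling, so they cannot show how the calls stand up to either. Alternatives were DESeq2 1.42.0 size factors, total counts (also without the 100 genes of highest count), pairwise TMM factors (added after the data were seen), no filter, a 10 CPM filter, a 1.5-fold bound, and the deposited FPKM plus 0.1 or 1, where a call is a 2-fold ratio without an interval.

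The members, the lists and the rules were chosen with earlier results of these data known. All members are named. Of other pathway genes, those called between alisertib and control MDSCs are named and, per list, up to 3 called genes with the bound farthest from 1 in control MDSCs over bone marrow. Of markers, summed levels are given, together with genes at 0. Protein sequences were not used here.

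Outside the lists given in the report, 3 fibroblast markers summed to 2.75 CPM in alisertib MDSCs, 6.66 in control MDSCs and 9.45 in bone marrow neutrophils, 7 endothelial markers to 55.1 CPM in alisertib MDSCs, 51.3 in control MDSCs and 14.1 in bone marrow neutrophils (Tek and Egfl7 at 0 in control MDSCs, Kdr in bone marrow) and 10 eosinophil, basophil and mast cell markers to 67.7 CPM in alisertib MDSCs, 48.7 in control MDSCs and 172.5 in bone marrow neutrophils (Epx and Ms4a2 at 0 in control MDSCs). The 6 counted epithelial markers summed to 652.9 CPM in alisertib MDSCs, 1737 in control MDSCs and 7308 in bone marrow neutrophils. Nearly all of this came from Lcn2, which is also a neutrophil granule gene. Of the 5 past the filter, 2 (Epcam and Krt18) were called higher and 1 (Lcn2) lower over bone marrow in each kind of MDSC. Krt18 had 165 counts in alisertib MDSCs, 133 in control MDSCs and 5 in bone marrow neutrophils. Epcam had 73 counts in alisertib MDSCs, 48 in control MDSCs and 0 in bone marrow neutrophils. The Krt18 and Epcam counts were added after their values were seen. Of T and NK markers, Ncr1 was at 0 in alisertib MDSCs and Trac in bone marrow. The summed level of the red cell marker list is not reported here.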

Additional observations from a re-analysis of the deposited data

Results flagged for a closer look

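Against the shared bone marrow library, 3 other pathway genes lay on opposite sides of 1 in the 2 kinds of MDSC, with both intervals away from 1. The iron exporter gene Slc40a1 had a ratio of 1.22 in alisertib MDSCs and 0.916 in control MDSCs, and the NRF2 relative Nfe2l1 had 1.23 and 0.935. For the sestrin gene Sesn3 they were 1.71 in alisertib MDSCs and 0.714 in control MDSCs, and for none of the 3 was the difference tested. Me1 is listed at 0.0973 FPKM in alisertib MDSCs in the FPKM values, which the comparisons did not use, against 0 FPKM in bone marrow neutrophils.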

How the results depend on the processing

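No paired analysis was possible because each group was 1 library and no label ties the libraries into pairs, and with 1 library per group no replicate could be left out. No member changed direction of call under any alternative. Of the called members, 1 of 2 was called under every setting in alisertib over control MDSCs, 18 of 20 in control MDSCs over bone marrow and 21 of 21 in alisertib MDSCs over bone marrow. The exceptions were Tkt in the first comparison (not called with total counts, nor after leaving out the 100 genes of highest count), and Gsto1 (total counts) and Gss (FPKM plus 1) in the second.

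For alisertib over control MDSCs, members called higher went to 1 with total counts, 1 with the top 100 genes left out and 2 (Gclc and Prdx1) with the 1.5-fold bound, and members called lower went to 1 with both total-count scalings. Their median log2 ratio was 0.40 with total counts and 0.35 with the top 100 genes left out. Other pathway genes called higher numbered 5 with total counts, 4 with the top 100 genes left out, 0 with the 10 CPM filter, 5 with the 1.5-fold bound, 5 with FPKM plus 0.1 and 0 with FPKM plus 1, and those called lower numbered 2 with the 1.5-fold bound and 1 with FPKM plus 0.1. Their median was 0.35 with total counts, 0.30 with the top 100 genes left out and -0.049 with the 10 CPM filter, which keeps fewer genes. Over all genes, 60.3% of the calls of this comparison were higher, against 83.6% with total counts, 80.4% with the top 100 genes left out, 62.3% with no filter, 57.3% with FPKM plus 0.1, 52.8% with DESeq2 size factors, 49.1% with the 1.5-fold bound, 34.6% with the 10 CPM filter and 32.4% with FPKM plus 1, so the majority turned to lower under the last 3.

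For control MDSCs over bone marrow, the members' median was 0.47 with total counts, 0.54 with the top 100 genes left out and 1.35 with the 10 CPM filter, which leaves 30 members. With the 1.5-fold bound 9 members were lower. The other pathway genes' median was -0.76 with total counts, -0.69 with the top 100 genes left out and -0.22 with FPKM plus 1. For alisertib MDSCs over bone marrow, the members' median was 1.40 with the 10 CPM filter, 8 members were lower with the 1.5-fold bound, and the other genes' median was -0.085 with FPKM plus 1. The cause of these shifts was not tested beyond what each setting's construction shows. Members at under 100 counts in a library (Prdx2, Prdx3, Prdx4, Gpx3, Gstm1, Gstp1, Cat, Gss, Srxn1 and Nqo1) carry wide counting intervals.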
